A study of Mus musculus with 30 samples.

Results

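Retinoid genes are those by which a cell takes up, converts, breaks down and responds to vitamin A. The 8 examined here were Stra6, Crabp2, Dhrs3, Aldh1a1, Cyp26b1, Rara, Rarb and Rarg, chosen by name from 55487 genes counted in C2C12 myotubes because serum supplies cultured cells with retinol. They were chosen with earlier results of these data known. Of the 8, 6 had enough counts to be tested, whereas Rarb and Aldh1a1 were at or near the limit of detection. C2C12 is an immortalised mouse myoblast line whose cells fuse into myotubes when serum is reduced. All cultures were wild type and were differentiated for 4 days in low glucose medium holding 2% horse serum, and RNA was taken after a further 4 days, at 8 days in total. The groups were 2% HS, which kept the horse serum, SD, which had no serum, MET, which had no serum and 100 nM metformin, LEU, which had no serum and 500 nM leucine, and MET+LEU, which had no serum and both agents. Each group held 6 libraries. The labels call these replicates and do not state separate cultures, so that p-values measure the spread between these libraries, which may be partly technical. Retinol was not measured in any sample here, and the loss of retinol cannot be told apart from the loss of the other components of serum.

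Retinol circulates bound to a carrier protein and enters many cells through the membrane receptor encoded by Stra6. Inside the cell it is oxidised first to retinaldehyde, a step that the reductase encoded by Dhrs3 reverses, and then to retinoic acid by retinaldehyde dehydrogenases such as that encoded by Aldh1a1. Crabp2 encodes a protein that carries retinoic acid to the nucleus, where the receptors encoded by Rara, Rarb and Rarg pair with retinoid X receptors on direct repeats of a short DNA half-site, and Cyp26b1 encodes an enzyme that breaks retinoic acid down. In many cell types retinoic acid itself induces Rarb, Stra6, Crabp2, Dhrs3 and the Cyp26 genes, and in cultured myoblasts retinoic acid is known to affect differentiation.

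Removal of serum was accompanied by lower levels of 4 of the 8 genes. Of all tested genes, 13.9% were called lower. Relative to 2% HS, Dhrs3 in SD was at 41.9%, Stra6 at 57.7%, Cyp26b1 at 57.9% and Crabp2 at 64.2%. The receptor genes Rara and Rarg were at 104% and 109% of their level in 2% HS and did not pass the test. Rarg did pass as higher under some alternative settings, which are given below. None of the 4 lower genes differed detectably from SD in MET, LEU or MET+LEU.

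The sequences upstream of 4 genes are given first, because receptor pairs bind direct repeats and these are the windows in which such repeats were looked for. They are the 250 bases before an annotated RefSeq start on GRCm38.p6, read 5′ to 3′ in the direction of the gene. Capitals mark the half-site, which was read as AGGTCA, or as its variant AGTTCA, or as the variant GGGTCA, or as the variant GGTTCA, on either strand. The windows are those of Rarb on the minus strand at chr14:16575477-16575726, of Cyp26a1, a second retinoic acid hydroxylase gene, on the plus strand at chr19:37697558-37697807, and of the genes with a window that were called lower in all 4 serum-free groups, Dhrs3 on the plus strand at chr4:144892577-144892826 and Cyp26b1 on the minus strand at chr6:84593811-84594060.
Rarb: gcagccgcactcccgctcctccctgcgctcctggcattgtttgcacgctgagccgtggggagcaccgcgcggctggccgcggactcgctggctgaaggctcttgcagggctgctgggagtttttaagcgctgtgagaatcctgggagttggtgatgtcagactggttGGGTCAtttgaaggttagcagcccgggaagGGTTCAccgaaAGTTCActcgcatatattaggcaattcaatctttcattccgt
Cyp26a1: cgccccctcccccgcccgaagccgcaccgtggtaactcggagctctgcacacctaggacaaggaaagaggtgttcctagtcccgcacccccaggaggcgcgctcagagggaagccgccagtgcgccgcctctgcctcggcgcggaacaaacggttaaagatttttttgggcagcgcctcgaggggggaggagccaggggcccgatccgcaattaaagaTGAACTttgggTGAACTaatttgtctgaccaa
Dhrs3: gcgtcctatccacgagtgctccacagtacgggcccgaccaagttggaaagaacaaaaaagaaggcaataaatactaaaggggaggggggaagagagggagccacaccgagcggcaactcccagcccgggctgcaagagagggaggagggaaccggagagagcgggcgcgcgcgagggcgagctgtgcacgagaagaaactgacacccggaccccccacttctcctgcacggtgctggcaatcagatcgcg
Cyp26b1: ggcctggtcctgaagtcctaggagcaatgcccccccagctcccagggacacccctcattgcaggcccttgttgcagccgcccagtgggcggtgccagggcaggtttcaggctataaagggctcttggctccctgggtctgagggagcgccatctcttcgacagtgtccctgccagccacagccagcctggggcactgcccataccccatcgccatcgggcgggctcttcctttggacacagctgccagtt

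Of the 8 genes, 7 had RefSeq windows, 17 in all, each of 250 bases before and 50 bases from the start. A direct repeat of 2 half-sites on the same strand with 1, 2 or 5 bases between them was found in 1 of these 17 windows, that of Rarb. It reads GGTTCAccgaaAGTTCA, lies at chr14:16575513-16575529 with its first base at position -53 from the start, and has 5 bases between the half-sites. Among 60 windows of the other retinoid pathway genes, 2 held a repeat, those of Bco1, which encodes the enzyme that cleaves beta-carotene, and Cyp26a1. That of Cyp26a1 reads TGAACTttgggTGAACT in the direction of the gene, which is the half-site AGTTCA on the opposite strand, at chr19:37697776-37697792. Over all 32817 mouse windows of that length, 0.59% held a repeat with any of the 3 gaps and 0.1% held one with a gap of 5 bases. Single half-sites were common, in 43.71% of all windows and in 6 of the 17. A match of letters is a description and not evidence of binding, and the windows of Dhrs3 and Cyp26b1 printed above held no half-site. Of the 3 windows of Dhrs3, 1 is printed. Other variants of the half-site and sequence outside the windows were not searched, so that this does not show that a binding site is absent.

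RNA was depleted of ribosomal RNA, sequenced and counted per gene by the authors, and libraries held 12784960 to 19604103 counts. Values are CPM, counts relative to the library total after scaling by the trimmed mean of M-values (TMM). The 15907 genes with enough counts were tested over all 30 libraries by edgeR's quasi-likelihood test, p was adjusted over them by the Benjamini-Hochberg method, and a gene was called where its adjusted p was under 0.05. Changes are log2 fold changes with their standard error (SE). A count of 0 allows up to 3 counts, which is 0.152 to 0.243 CPM depending on the library, and intervals and limits of this kind cover counting error only. In bulk RNA a lower level from fewer expressing cells and one from less RNA per cell cannot be told apart. MET+LEU replicate 6 stood apart, with 5.85% of its counts on ribosomal RNA and 7.64% on mitochondrial ribosomal RNA, against at most 1.96% and 0.76% in the other libraries, and calls lost without it are given with their values. Of the markers checked, the 6 myotube genes were expressed in every group.

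**Figure D1:**
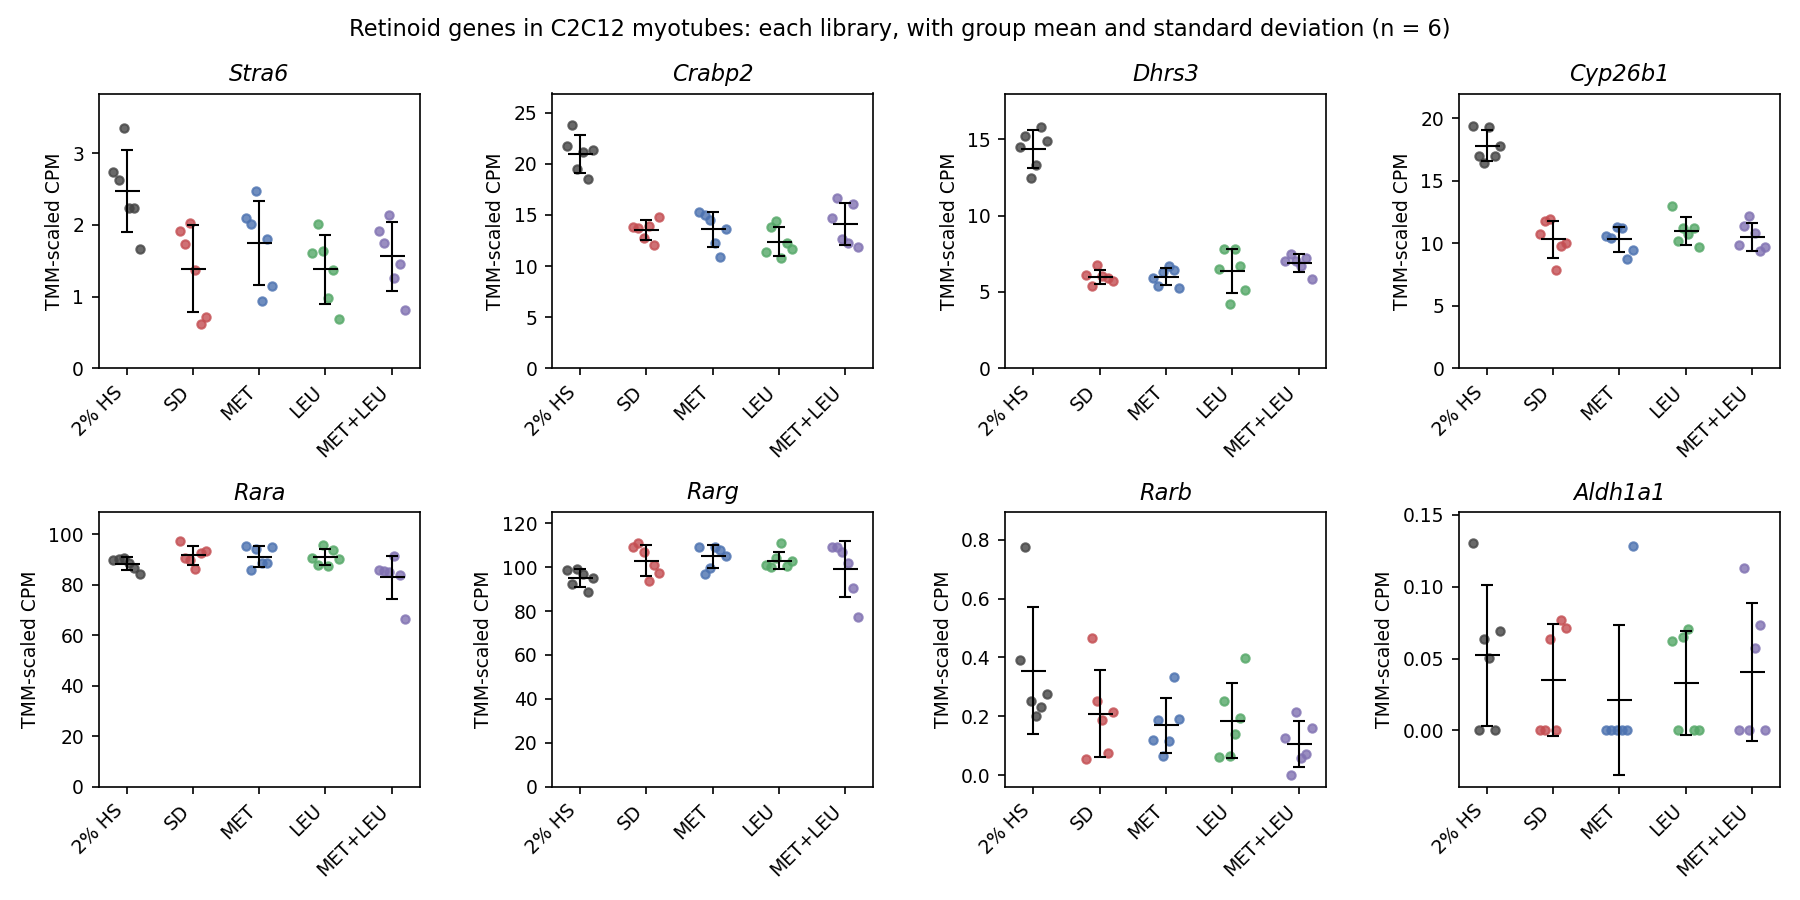
TMM-scaled CPM (vertical axes, linear) of the 8 retinoid genes in each library of the 5 groups (horizontal axes), with the group mean and standard deviation as bars (n = 6). All 24 serum-free libraries lay below all 6 libraries of 2% HS for Crabp2, Dhrs3 and Cyp26b1, Stra6 overlapped between groups, and the panels of Rarb and Aldh1a1 rest on at most 10 counts per library.

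Stra6 (ENSMUSG00000032327, chr9:58063788-58153996, plus strand), the gene of the retinol uptake receptor, was at 1.66 to 3.35 CPM in 2% HS with a median of 2.43, and at 0.616 to 2.03 CPM in SD with a median of 1.55. In MET it was at 0.936 to 2.48 CPM (median 1.91), in LEU at 0.682 to 2.01 (median 1.49) and in MET+LEU at 0.81 to 2.14 (median 1.61). All 6 SD libraries lay below the 2% HS mean, but the groups overlapped. Stra6 fell in SD by 0.79 on the log2 scale (SE 0.25, 95% interval -1.3 to -0.28, adjusted p = 0.0148). It also fell in LEU, by 0.84 (SE 0.25, adjusted p = 0.0091), and in MET+LEU, by 0.66 (SE 0.25, adjusted p = 0.0311). In MET its log2 fold change was -0.51 (SE 0.25, adjusted p = 0.105) and 5 of 6 libraries lay below the 2% HS mean, which did not pass the test. Stra6 was the least precise of the tested genes, with 797 counts over the 30 libraries and 8 to 53 in a library. Its call in MET+LEU vs. 2% HS was lost when any of 4 single libraries was left out, namely 2% HS replicate 1 (adjusted p = 0.0527), 2% HS replicate 3 (0.0866), MET+LEU replicate 4 (0.0622) and MET+LEU replicate 6 (0.0659).

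Crabp2 (ENSMUSG00000004885, chr3:87948666-87953376, plus strand), the gene of the retinoic acid carrier protein, was at 18.5 to 23.8 CPM in 2% HS with a median of 21.3. It was at 12.1 to 14.8 CPM in SD (median 13.7), at 10.9 to 15.3 in MET (median 14), at 10.8 to 14.4 in LEU (median 12) and at 11.9 to 16.7 in MET+LEU (median 13.7). The highest serum-free library therefore lay below the lowest library of 2% HS, at 16.7 and 18.5 CPM. Crabp2 fell in SD by 0.64 on the log2 scale (SE 0.09, 95% interval -0.81 to -0.47, adjusted p = 5.3e-08). It fell by 0.63 with MET, 0.76 with LEU and 0.58 with MET+LEU relative to 2% HS, with adjusted p between 8.43e-10 and 3.3e-07.

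Dhrs3 (ENSMUSG00000066026, chr4:144892827-144928209, plus strand), whose product returns retinaldehyde to retinol, showed the largest fall of the 6 tested genes. Its level was 12.5 to 15.8 CPM in 2% HS, with a median of 14.7, and 5.38 to 6.77 CPM in SD, with a median of 5.99. In MET the range was 5.25 to 6.67 CPM (median 6.11), in LEU 4.23 to 7.81 (median 6.61) and in MET+LEU 5.83 to 7.51 (median 7.03). No serum-free library came near those of 2% HS, and the spread was widest in LEU, with a standard deviation of 1.44 CPM against 0.467 to 0.583 in the other serum-free groups. Dhrs3 fell in SD by 1.26 (SE 0.1, 95% interval -1.47 to -1.04, adjusted p = 9.45e-14). The falls relative to 2% HS were 1.26 with MET, 1.18 with LEU and 1.05 with MET+LEU, with adjusted p between 5.86e-14 and 9.42e-12. Among the 15907 genes tested, 77 (0.484%) had a lower log2 fold change than Dhrs3 in SD vs. 2% HS.

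Cyp26b1 (ENSMUSG00000063415, chr6:84571414-84593908, minus strand), the gene of a retinoic acid hydroxylase, was at 16.4 to 19.4 CPM in 2% HS (median 17.4) and at 7.87 to 11.9 CPM in SD (median 10.3). It was at 8.72 to 11.3 CPM in MET (median 10.5), at 9.67 to 13 in LEU (median 10.9) and at 9.37 to 12.2 in MET+LEU (median 10.3). The serum-free libraries overlapped with each other and all lay below 2% HS. Cyp26b1 fell in SD by 0.79 (SE 0.09, 95% interval -0.96 to -0.61, adjusted p = 4.02e-10). It fell by 0.79 with MET, 0.7 with LEU and 0.76 with MET+LEU relative to 2% HS, with adjusted p between 2.19e-10 and 6.38e-09.

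The receptor genes Rara and Rarg did not pass the test against 2% HS in any serum-free group. Rara (ENSMUSG00000037992, chr11:98927818-98974942, plus strand) was at 84.2 to 90.6 CPM in 2% HS (median 89) and at 86.2 to 97.3 in SD (median 91.6). It was at 85.6 to 95.4 CPM in MET (median 91.1), at 87.5 to 95.5 in LEU (median 90.2) and at 66.3 to 91.4 in MET+LEU (median 85.2). Each group overlapped with 2% HS, and the log2 fold change in SD was 0.05 (SE 0.05, 95% interval -0.04 to 0.15, adjusted p = 0.423). Against 2% HS it was 0.04 with MET, 0.04 with LEU and -0.09 with MET+LEU (adjusted p = 0.494, 0.559 and 0.129).

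Rarg (ENSMUSG00000001288, chr15:102234938-102257517, minus strand), the second receptor gene with high counts, was at 88.6 to 99.2 CPM in 2% HS (median 96) and at 93.8 to 111 in SD (median 104). It was at 96.7 to 109 CPM in MET (median 107), at 100 to 111 in LEU (median 102) and at 77.5 to 109 in MET+LEU (median 105). All 6 LEU libraries lay above all 6 of 2% HS, as in 9.11% of all tested genes, and the other groups overlapped with 2% HS. The log2 fold change vs. 2% HS was 0.12 for SD (SE 0.06, 95% interval 0 to 0.23, adjusted p = 0.117), 0.14 for MET (adjusted p = 0.0552), 0.11 for LEU (0.127) and 0.06 for MET+LEU (0.384). Without MET+LEU replicate 6 in the model, Rarg passed the threshold as higher in each serum-free group (adjusted p = 0.034 in SD, 0.00833 with MET, 0.0327 with LEU and 0.0325 with both).

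In SD vs. 2% HS, 13.9% of all tested genes were called lower, against 4 of the 8 retinoid genes, and 13.9% were called higher, against 0 of the 8. Of these 8, 6 were tested, so that the 4 stand among 6 in a like comparison, here and below. The SD libraries lay below those of 2% HS without overlap in 3 of the 8 genes and in 7.42% of all. In MET vs. 2% HS the background was 17.5% lower, and 3 of the 8 were called, Crabp2, Dhrs3 and Cyp26b1. In LEU vs. 2% HS 4 of the 8 were called lower against 15.3% of all genes, and in MET+LEU vs. 2% HS 4 of the 8 against 20.3%. The median log2 fold change of the 6 tested genes was -0.71 (SD), -0.57 (MET), -0.73 (LEU) and -0.62 (MET+LEU), where the median of all genes lay between -0.01 and 0. These 4 comparisons share the 2% HS libraries, so that their likeness is not independent evidence. The 8 genes were chosen with earlier results of these data known, so that these shares are a description. The 24 serum-free libraries lay below all 6 libraries of 2% HS for 3 of the 8 genes, Crabp2, Dhrs3 and Cyp26b1, and for 719 of the 15907 tested (4.52%).

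**Figure D2:**
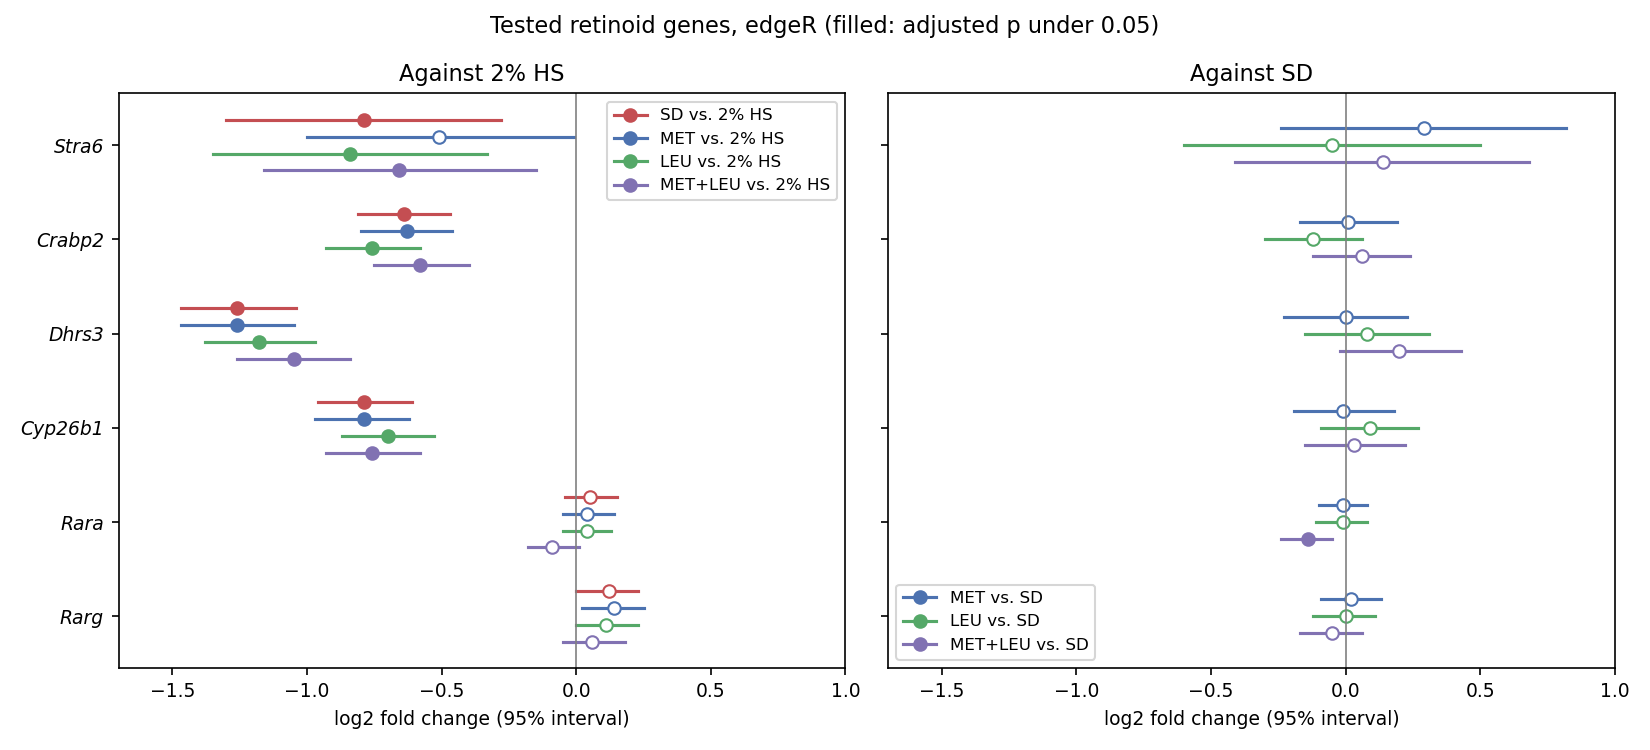
Log2 fold changes (horizontal axis) with 95% intervals of the 6 tested retinoid genes (vertical axis), against 2% HS on the left and against SD on the right, with filled points for an adjusted p under 0.05. Against 2% HS the intervals of Stra6, Crabp2, Dhrs3 and Cyp26b1 lie below 0 in all 4 groups. That of Stra6 in MET, from -1 to -0.01, did not pass the adjusted threshold. Against SD the interval of Rara in MET+LEU, from -0.24 to -0.05, is the one that passed.

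**Figure D3:**
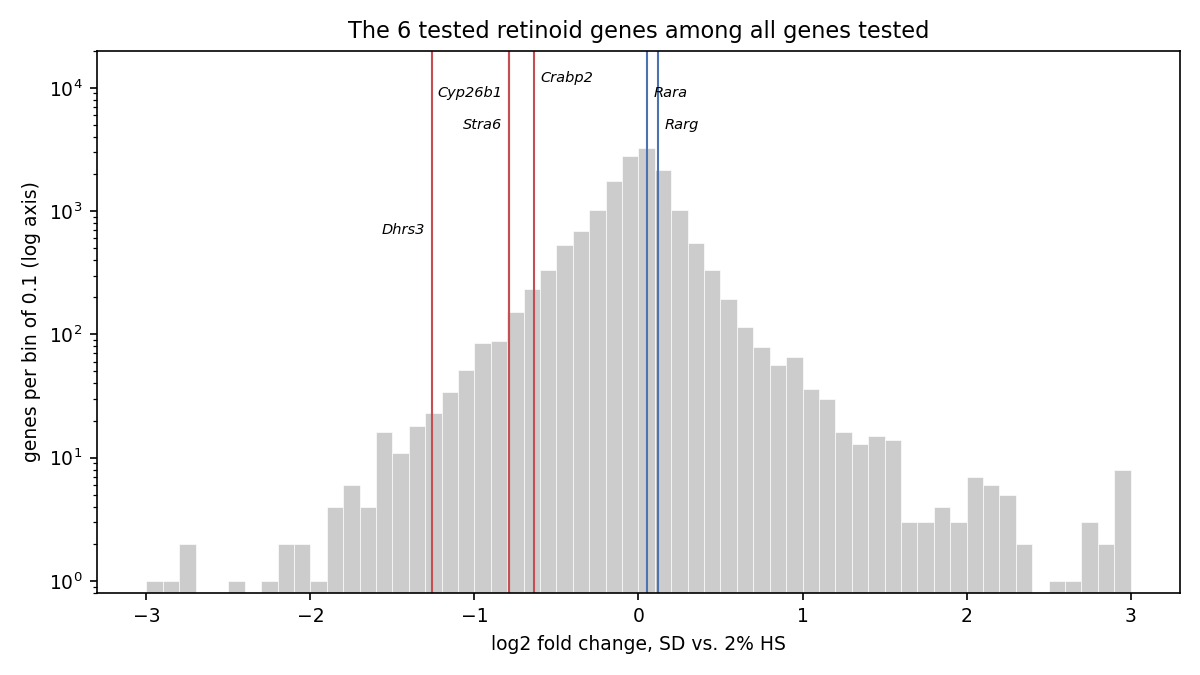
Number of genes (log axis) by log2 fold change in SD vs. 2% HS for the 15907 genes tested, in bins of 0.1, with genes beyond the ends of the axis placed in the end bins. Vertical lines mark the 6 retinoid genes, red where called, and 77, 355, 366 and 631 genes had a lower value than Dhrs3, Stra6, Cyp26b1 and Crabp2.

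Levels can be compared between genes only per length. Per kb of annotated exon, the order in 2% HS was Rarg at 22.3 ± 0.958 CPM per kb, Rara at 20.2 ± 0.566 and Crabp2 at 15.9 ± 1.42 (mean ± standard deviation, n = 6 each). Dhrs3 followed at 4.91 ± 0.424, Cyp26b1 at 3.33 ± 0.234 and Stra6 at 0.424 ± 0.0986 CPM per kb. Rarb and Aldh1a1 were the lowest, at 0.0674 ± 0.0409 and 0.0106 ± 0.00991 CPM per kb. Each pair of neighbours in this order lay apart by more than either standard deviation.

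Rarb (ENSMUSG00000017491, chr14:16430839-16819156, minus strand), the receptor gene that retinoic acid induces in many cells, had 93 counts in all 30 libraries together and was too low for the main test. A library of 2% HS held 3 to 10 counts, one of SD or LEU 1 to 7, one of MET 1 to 5 and one of MET+LEU 0 to 3. The highest counts stood in 2% HS, the groups overlapped, and 1 library, in MET+LEU, held none. Pooled over the 6 libraries of a group, the level was 0.34 CPM in 2% HS (exact Poisson 95% interval 0.231 to 0.482), 0.206 in SD (0.124 to 0.322) and 0.099 in MET+LEU (0.0453 to 0.188). In MET and LEU it was 0.168 CPM (0.0961 to 0.273) and 0.19 CPM (0.113 to 0.301). In a fit without the filter on low counts, over 32861 genes, the log2 fold change of Rarb was -0.72 in SD (SE 0.58, adjusted p = 0.479), -1 in MET (0.285) and -0.84 in LEU (0.411). In MET+LEU it was -1.71 (SE 0.65, adjusted p = 0.0427), which rests on 9 counts against 31 in 2% HS. Of the annotated exon bases of Rarb, 1793 (34.1%) overlap the gene Top2b and 227 (4.3%) the antisense gene Gm48162, both on the opposite strand. The library kit kept strand, but whether the counting used it is not given in the sources used here, so reads of these genes cannot be told apart.

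Aldh1a1 (ENSMUSG00000053279, chr19:20492715-20643465, plus strand), which encodes a retinaldehyde dehydrogenase, was not detected in 16 of the 30 libraries. It had 0 to 2 counts in a library and 17 in all, of which 5 came from 2% HS, 3 each from SD and LEU, 2 from MET and 4 from MET+LEU. The pooled level was 0.0548 CPM in 2% HS (exact Poisson 95% interval 0.0178 to 0.128) and 0.0325 CPM in SD (0.00671 to 0.0951). At this depth no difference between groups was detectable.

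The wider pathway was described with 65 further genes in 5 lists by role, of which 43 were tested. The lists leave out the 8 genes, so that the falls of Stra6, Dhrs3, Crabp2 and Cyp26b1 are not in their counts. In SD vs. 2% HS 9 rose and 8 fell, where 27.8% of all genes changed in either direction, and the median log2 fold change of the 43 was -0.01.

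Among 3 tested genes of 9 for uptake, storage and release, 1 rose and 0 fell, where 13.9% of all genes rose and 13.9% fell. Lipe, the gene of hormone-sensitive lipase, which can release retinol from its stored esters, rose by 0.38 (SE 0.11, adjusted p = 0.00664). Lrat, whose product makes those esters, had 0 counts in every library, and Rbp4, the gene of the circulating carrier, had 178 counts in all and was not tested.

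Among 14 tested genes of 21 for oxidation and reduction, 5 rose and 0 fell, with a median log2 fold change of 0.18. Over all tested genes 13.9% rose and 13.9% fell. Adh1, an alcohol dehydrogenase gene whose product can oxidise retinol, was at 0.507 ± 0.189 CPM in 2% HS and 2.97 ± 0.687 in SD, with no overlap between the groups, as in 6.17% of all tested genes (log2 fold change 2.51, SE 0.27, adjusted p = 4.29e-10). Aldh1a3, which encodes a retinaldehyde dehydrogenase like Aldh1a1, rose from 3.65 ± 0.711 to 6.45 ± 0.567 CPM (log2 fold change 0.83, SE 0.12, adjusted p = 3.44e-07), and its groups did not overlap either. Aldh1a2, the third gene of this enzyme family, was low at 0.44 ± 0.156 CPM in 2% HS and 0.559 ± 0.204 in SD and did not pass the test (adjusted p = 0.533). The retinol dehydrogenase genes Dhrs9, Rdh11 and Rdh5 rose by 0.77 (SE 0.27, adjusted p = 0.0257), 0.38 (SE 0.06, 1.06e-06) and 0.2 (SE 0.06, 0.00405). The call of Dhrs9 was lost without SD replicate 6 (0.541, adjusted p = 0.142), 2% HS replicate 4 (0.0671) or 2% HS replicate 5 (0.0777). Rdh10, which encodes the main retinol dehydrogenase of the embryo, was at 47.9 ± 4.14 CPM in 2% HS and 49.9 ± 1.93 in SD (log2 fold change 0.06, adjusted p = 0.419). At an unadjusted p under 0.05 in edgeR's test, 19 of the 43 pathway genes differed in SD vs. 2% HS, where 37.9% of all genes did. DESeq2's Wald test called 9 of the 43 higher and 8 lower at an adjusted p under 0.05. The share of all genes that DESeq2 called is not given here, so that this count has no like background.

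Among 3 tested genes of 4 for binding and breakdown of retinoic acid, Cyp26a1, whose upstream window is printed above, fell from 1.75 ± 0.262 to 0.952 ± 0.461 CPM (log2 fold change -0.88, SE 0.27, adjusted p = 0.0106). The groups overlapped. Cyp26c1 had a log2 fold change of -0.68 (SE 0.35, adjusted p = 0.143) and did not pass. Cyp26a1 was the 1 gene called among these 3, where 13.9% of all tested genes were called lower and 13.9% higher. Cyp26b1, which is not in this list, was also lower without serum, as given above.

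Among 10 tested genes of 11 for receptor partners and co-regulators, 1 changed, where 27.8% of all genes did. Rxra, which encodes a retinoid X receptor, rose from 87.5 ± 5.05 to 114 ± 6.82 CPM with no overlap (log2 fold change 0.38, SE 0.04, adjusted p = 4.52e-10). The corepressor gene Ncor1 and the coactivator genes Ncoa1, Ncoa2 and Ncoa3 did not pass in this comparison.

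Among 13 tested genes of 20 that retinoic acid is known to induce, 7 fell and 2 rose, with a median log2 fold change of -0.22. Of all tested genes, 13.9% were called lower and 13.9% higher. Tgm2, which encodes a transglutaminase, had the largest fall, from 63.6 ± 2.05 CPM in 2% HS to 32.6 ± 2.79 in SD with no overlap (log2 fold change -0.96, SE 0.07, adjusted p = 3.52e-16). Gprc5a, which encodes an orphan receptor, fell by 0.69 (SE 0.22, adjusted p = 0.0146) and Rai14 by 0.36 (SE 0.05, adjusted p = 5.6e-08). The transcription factor genes Zfp703, Nr2f2, Meis2 and Meis1 fell by 0.27, 0.24, 0.22 and 0.19 (adjusted p = 0.00806, 0.00368, 0.00151 and 0.0219). Meis1 did not pass without 2% HS replicate 2 (adjusted p = 0.0606), SD replicate 1 (0.067) or SD replicate 3 (0.0582). Nr2f1 rose by 0.35 (adjusted p = 0.00641). Rai1 rose by 0.1 (adjusted p = 0.0432), but its call was lost in 17 of the 30 fits that left out 1 library, with an adjusted p of up to 0.197 without SD replicate 1, where the difference was 0.068. Hoxa5 was at 5.5 ± 0.645 CPM in 2% HS and 5.39 ± 1.11 in SD, and Rarres1, Stra8 and Hoxb1 had 0 counts in every library.

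**Figure D4:**
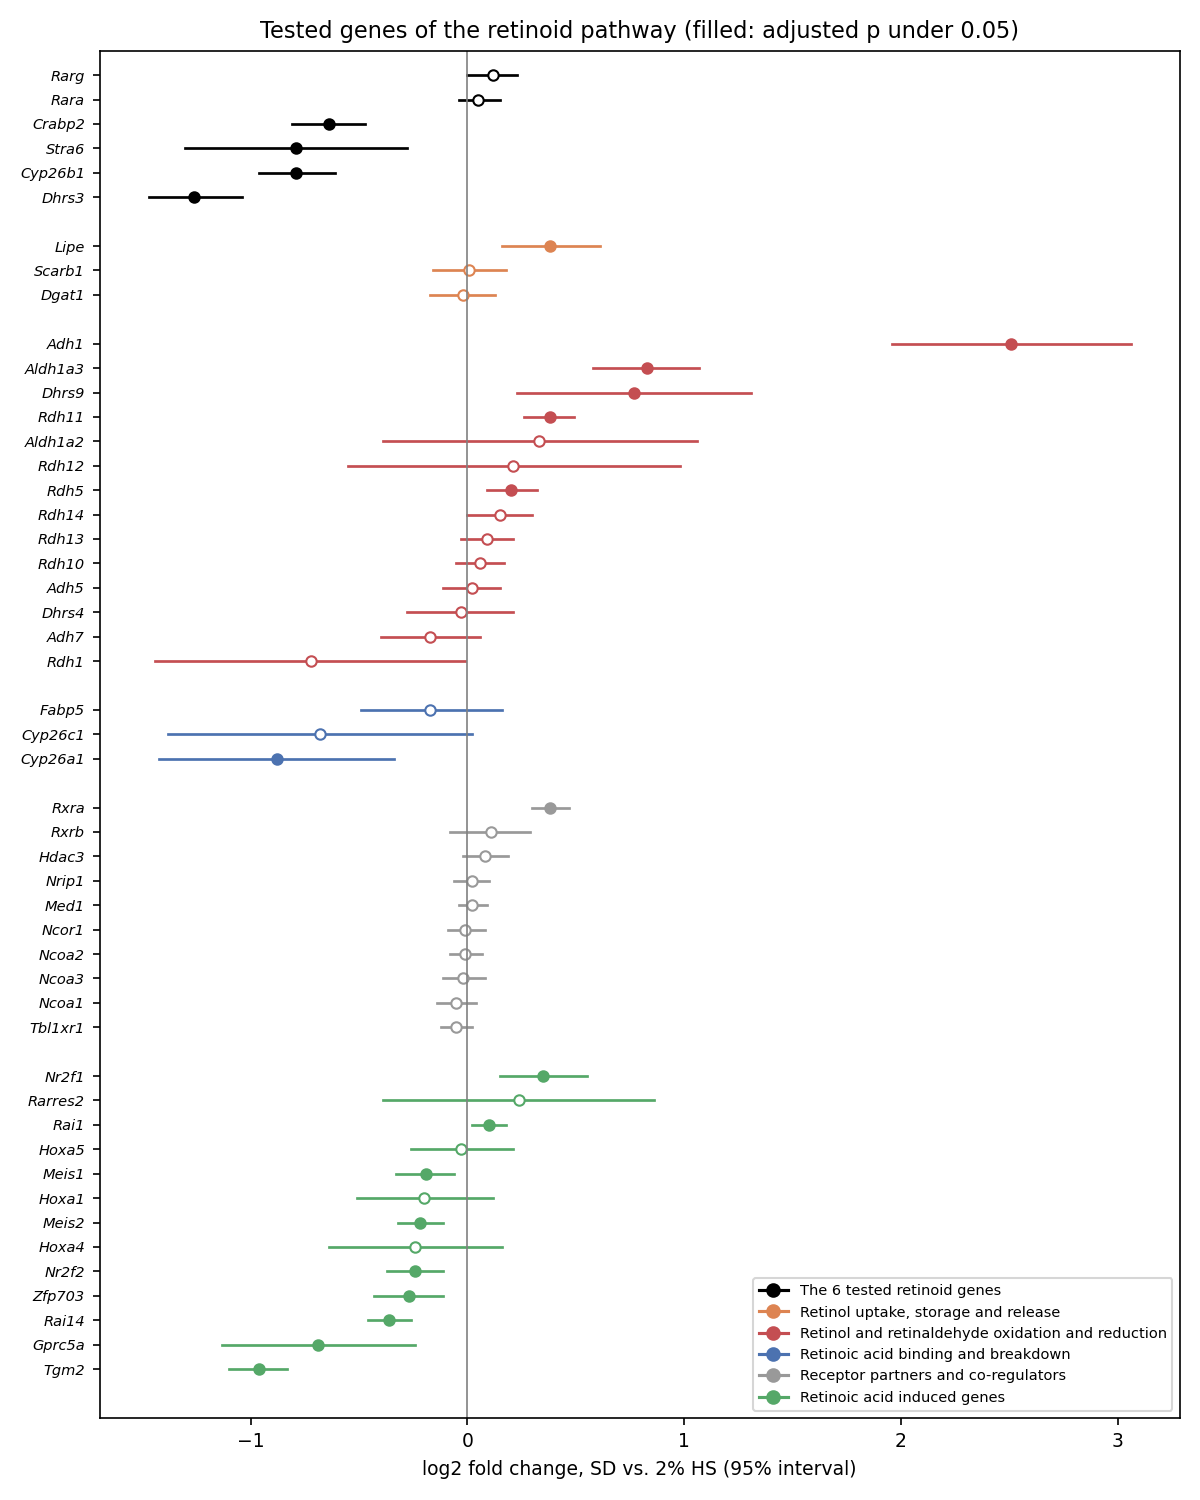
Log2 fold changes in SD vs. 2% HS (horizontal axis) with 95% intervals for the 6 tested retinoid genes and the 43 tested genes of 5 pathway lists (vertical axis, coloured by list), with filled points for an adjusted p under 0.05. The 5 called oxidation and reduction genes lie above 0, led by Adh1 at 2.51, and Dhrs3 at -1.26 and Tgm2 at -0.96 have the lowest values.

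Other features of the cultures moved with serum as well. All 5 fibroblast markers were higher in SD than in 2% HS. Their summed level was 2986 to 3296 CPM in 2% HS, 5202 to 5519 CPM in SD and between 5061 and 5761 CPM in the other serum-free groups. Most of this sum was Col3a1, with a mean of 4506 CPM in SD. Col1a1 in MET+LEU, at a mean of 605 CPM against 564 in 2% HS, did not pass (adjusted p = 0.0813). The summed level of the 6 myotube markers overlapped, at 7798 to 8474 CPM in 2% HS and 7351 to 8826 in SD, with Ckm, the muscle creatine kinase gene, lower by a log2 fold change of -0.98 (adjusted p = 6.25e-10) and Des, the desmin gene, higher by 0.13. Of 5 myoblast and cycling markers, Pax7 was lower (-0.37, adjusted p = 1.25e-10), with sums of 344 to 368 CPM in 2% HS and 302 to 339.6 in SD. The 5 macrophage markers summed to 2.22 to 3.48 CPM in 2% HS and 2.57 to 3.99 in SD, the 5 endothelial markers to at most 1.14 CPM and the 5 adipocyte markers to at most 0.268 CPM in any library. Of the macrophage markers Cd68 had 24 to 58 counts and Csf1r 1 to 12 in a library, Ptprc and Lyz2 had at most 2 and 4, and Adgre1 had 0 in all 30. Of the endothelial markers Tek had 1 to 13 counts, Pecam1 and Cdh5 had 0 to 7, Kdr at most 1 and Emcn 0 in all 30, and of the adipocyte markers none had more than 4 and Lep had 0 in all 30. Markers also differed between serum-free groups. In MET+LEU vs. SD 3 of 5 myoblast and cycling markers were called lower (Ccnb1 -0.89, Top2a -0.64, Mki67 -0.35). Of 6 myotube markers 2 were called higher (Tnnt3 0.82, Myh3 0.36), and of 5 fibroblast markers 2 were higher and 1 lower. Of all tested genes 18.4% changed there. In LEU vs. SD Ccnb1 (-0.7), Top2a (-0.46) and Col1a1 (-0.2) were called lower, where 0.553% of all genes changed. The part of these shifts in the results of the retinoid genes was not tested.

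The question of whether metformin, leucine or both altered the retinoid genes in the absence of serum was addressed by comparison with SD. In MET vs. SD 0 of the 8 genes, 6 of them tested, passed edgeR's test, where 0.157% of all genes did. In LEU vs. SD it was 0 of the 8 against 0.553%. At an unadjusted p under 0.05, which 10.0% and 9.98% of all genes reached, the number was also 0 in both, as it was with DESeq2's Wald test. For Dhrs3 the log2 difference from SD was 0 in MET (95% interval -0.23 to 0.23) and 0.08 in LEU (-0.15 to 0.31). For Cyp26b1 it was -0.01 in MET (-0.19 to 0.18) and 0.09 in LEU (-0.09 to 0.27), and for Crabp2 0.01 in MET (-0.17 to 0.19) and -0.12 in LEU (-0.3 to 0.06). A change of Stra6 was bounded less tightly, at 0.29 in MET (-0.24 to 0.82) and -0.05 in LEU (-0.6 to 0.5). Rara and Rarg lay within 0.02 of SD on the log2 scale in both groups.

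In MET+LEU vs. SD 1 of the 8 genes passed, Rara, with 6 of the 8 tested. Of all tested genes 18.4% passed and 7.80% were called lower. Rara was at 82.9 ± 8.59 CPM in MET+LEU and 91.6 ± 3.78 in SD (mean ± standard deviation, n = 6 each), a log2 fold change of -0.14 (SE 0.05, 95% interval -0.24 to -0.05, adjusted p = 0.0275). All 6 MET+LEU libraries lay below the SD mean, but the groups overlapped. The call rested on single libraries. Without MET+LEU replicate 6, the library with high ribosomal RNA and the lowest Rara level, at 66.3 CPM, the log2 fold change was -0.091 (adjusted p = 0.11), and without SD replicate 1 the adjusted p was 0.0623. With the MET+LEU and SD libraries fitted alone it was 0.135.

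The genes that fell without serum did not differ detectably between MET+LEU and SD. Dhrs3 had the largest difference of the 3 with high precision, at 0.2 (95% interval -0.02 to 0.43, adjusted p = 0.213), with 5 of 6 MET+LEU libraries above the SD mean. Cyp26b1 differed by 0.03 (-0.15 to 0.22), Crabp2 by 0.06 (-0.12 to 0.24) and Stra6 by 0.14 (-0.41 to 0.68). The upper bound of Dhrs3 thus lay at 0.43 where its fall in SD had been 1.26. The interaction, which asks whether the combination departed from the sum of both single effects, passed for 0 of the 8 genes, where 0.0503% of all genes passed. At an unadjusted p under 0.05 it was also 0 of the 6 tested, and 0 with DESeq2. Rara had the lowest p of the 6, with an interaction of -0.12 (95% interval -0.25 to 0.01, adjusted p = 0.616).

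Of the 43 pathway genes, 0 passed with MET and 0 with LEU relative to SD, by edgeR and by DESeq2, and 4 in each had an unadjusted p under 0.05, where 10.0% and 9.98% of all genes did. In MET+LEU vs. SD 3 fell and 2 rose, where 18.4% of all genes changed in either direction. Rxrb, which encodes a retinoid X receptor, fell from 42.6 ± 7.03 to 32.7 ± 5.19 CPM with overlapping groups (log2 fold change -0.38, SE 0.09, adjusted p = 0.00336). Rai1 fell by 0.19 (adjusted p = 0.000347) and Rdh13 by 0.18 (0.0298), while Rai14 rose by 0.16 (0.0135) and Ncor1 by 0.13 (0.0302). Rxra, which had risen without serum, had a log2 difference of -0.11 (SE 0.04, adjusted p = 0.0638). With the MET+LEU and SD libraries fitted alone, the adjusted p was 0.0633 for Rxrb, 0.0894 for Rai14, 0.0693 for Rdh13 and 0.172 for Ncor1, none of which passed. Without MET+LEU replicate 6 the difference of Ncor1 was 0.061 (adjusted p = 0.249) and that of Rdh13 -0.159 (0.0767). Ncor1 was also lost without SD replicate 1 (0.0921), 2 (0.0747), 3 (0.0905) or 6 (0.0789) or MET+LEU replicate 5 (0.0525), Rdh13 without SD replicate 1 (0.0542) or 3 (0.0541), and Rai14 without SD replicate 3 (0.076) or MET+LEU replicate 1 (0.0564).

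The genes whose 4 log2 fold changes vs. 2% HS were most like those of each called gene were found by the root mean square distance over the 4 comparisons, as a description. For Dhrs3 they were Serpinb6b, a serpin gene, at a distance of 0.029, Ctsc, the cathepsin C gene, at 0.04, and Galnt6, a glycosyltransferase gene, at 0.052. For Cyp26b1 they were Aig1 (0.035), Plekhh1 (0.04) and Gm43360 (0.043), and for Crabp2 they included Cpne8 (0.043) and the basement membrane gene Nid2 (0.05). For Stra6 the nearest were Gm22362 (0.091), Gm43810 (0.091) and 4933411K16Rik (0.099), all of similarly low level.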

How the data were processed

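C2C12 myotubes were analysed in 5 groups of 6 libraries. The authors made stranded libraries from total RNA after removal of ribosomal RNA and sequenced them with 150 bp paired reads. The deposited values are raw counts per Ensembl gene without normalization. The submitters' processing notes name cutadapt 1.16, STAR 2.7.6a, featureCounts 1.6.3, DESeq2 1.30.1 and GRCm38, whereas the strand setting and the annotation release are not given in the sources used here. Of 55487 identifiers, 55141 matched a symbol of GENCODE M21 (GRCm38), which gave positions and exon lengths.

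The analysis used R 4.3.3. Low genes were removed with filterByExpr of edgeR 4.0.16 (minimum count 10, minimum total 15), and the rest were TMM-scaled, fitted with 1 mean per group over 30 libraries and tested with the quasi-likelihood F test and Benjamini-Hochberg adjustment over the 15907 genes kept. The common biological coefficient of variation was 0.0709. The procedure was tested on simulated data for SD vs. 2% HS, where of 15680 genes 100 were changed by 1.5-fold and 100 by 2-fold, and 74 and 96 were recovered with 8 false calls among 178. The simulation gave all genes the same biological spread and held no outlying library, so that its rates need not hold for these data. Library totals and limits of detection are given with the results. Alternatives were DESeq2 size factors, upper-quartile scaling, DESeq2 1.42.0 (Wald test), no filter, at least 10 counts in every library, the groups compared alone, the replicate number as a block, and each library left out in turn.

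The retinoid genes, pathway lists, markers and tests were chosen with earlier results of these data known. All 8 genes are described. Pathway genes are named where they passed the threshold in SD vs. 2% HS or MET+LEU vs. SD (up to 25), and the 3 genes most alike are named for each of the 8 genes that passed in SD vs. 2% HS with an absolute log2 fold change of at least 0.5. Other pathway genes named (Lrat, Rbp4, Bco1, Aldh1a2, Rdh10, Cyp26c1, Ncoa1, Ncoa2, Ncoa3, Hoxa5, Rarres1, Stra8 and Hoxb1) were chosen after their values were seen. Some genes of the lists and rules are not reported here, and the list counts leave them out. Upstream sequences came from RefSeq (GRCm38.p6). They gave no window for Crabp2.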

Additional observations from a re-analysis of the deposited data

Results flagged for a closer look

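Each of the 8 retinoid genes was examined in each of the 5 groups, 40 sets in all, for a single library far from the other 5, and 4 were found. Among normally distributed values chance gives such a library in about 1 of 20 sets. This rate need not hold for Rarb and Aldh1a1, whose counts were at or near the limit of detection. Rara in MET+LEU was lowest in replicate 6, at 66.3 CPM, with the nearest library at 83.8 CPM. That library also held the highest share of ribosomal RNA, and whether the one bears on the other was not tested. Rarg in LEU was highest in replicate 4, at 111 CPM, with the nearest at 104 CPM. Rarb in 2% HS was highest in replicate 2, at 0.774 CPM against 0.391 CPM in the nearest, which are counts at the limit of detection. Aldh1a1 in MET was at 0.128 CPM in replicate 6 and at 0 in the other 5 libraries, which is a difference of 2 counts.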

How the results depend on the processing

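Crabp2, Dhrs3 and Cyp26b1 were called lower than in 2% HS in each of the 4 serum-free groups under every alternative run. Stra6 was called lower in SD and LEU under every alternative that tested it. With at least 10 counts required in every library Stra6 was not tested, as its lowest count was 8. Leaving out each library in turn gave 4 to 5 called genes of the 8 in SD vs. 2% HS, 3 to 4 in MET, 4 to 5 in LEU, 3 to 4 in MET+LEU and 0 to 1 in MET+LEU vs. SD, the changes being those of Rarg, Stra6 and Rara. In MET vs. 2% HS the number was 5 with the groups compared alone and 5 with the replicate number as a block, where Rarg (adjusted p = 0.00178 and 0.0394) and Stra6 (0.04 and 0.0207) were added. In MET+LEU vs. SD it was 0 with the groups compared alone. Same-numbered libraries did not deviate together (correlations from -0.091 to 0.142 over 60 pairs, 2 above 0.1) and were not treated as pairs. The block changed no other call of the 8 genes. Rarg passed as higher than in 2% HS in SD, MET and LEU with no filter (adjusted p = 0.0387, 0.00734 and 0.0384) and with the groups compared alone (0.0495, 0.00178 and 0.00461). In MET it also passed with DESeq2 size factors (0.0487) and DESeq2's Wald test (0.0494). Rara passed as lower in MET+LEU vs. 2% HS with upper-quartile scaling (-0.113, adjusted p = 0.0462) and without MET+LEU replicate 4 (0.0285).

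The pathway counts in MET+LEU vs. SD were the least stable. Genes called higher numbered 1 with upper-quartile scaling and 0 with the groups compared alone, and 0 to 4 when single libraries were left out (0 without SD replicate 3, 4 without SD replicate 5). Genes called lower numbered 6 with upper-quartile scaling, 6 with DESeq2's Wald test, 6 with at least 10 counts in every library, 5 with the replicate block and 1 with the groups compared alone, and 2 to 6 when single libraries were left out. In LEU vs. SD 1 pathway gene was called higher with no filter on low counts. The rise of Rai1 in SD vs. 2% HS was lost with upper-quartile scaling (adjusted p = 0.0715), no filter (0.0627), at least 10 counts in every library (0.0556) and the groups compared alone (0.0763). In MET+LEU vs. SD the call of Ncor1 was lost with upper-quartile scaling (0.0651) and that of Rdh13 with no filter (0.0634). The cause of these changes was not tested.

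Differences from SD close to 0 changed sign between settings and passed under none of those named here. Dhrs3 in MET was at 0.002 with DESeq2 size factors, with DESeq2's Wald test and with no filter, and at 0.004 with the groups compared alone, where Cyp26b1 was at 0. Rarg in LEU was at 0.001 with DESeq2 size factors, upper-quartile scaling and DESeq2's Wald test. With single libraries left out, the log2 differences in MET ranged from -0.023 to 0.012 for Rara, -0.005 to 0.043 for Rarg, -0.023 to 0.068 for Crabp2, -0.035 to 0.039 for Dhrs3 and -0.07 to 0.042 for Cyp26b1. In LEU they ranged from -0.027 to 0.008 for Rara, -0.027 to 0.021 for Rarg and -0.185 to 0.1 for Stra6. In MET+LEU they ranged from -0.091 to 0.001 for Rarg, -0.007 to 0.257 for Stra6, -0.002 to 0.097 for Crabp2 and -0.043 to 0.07 for Cyp26b1. The interaction ranged from -0.249 to 0.025 for Stra6 and -0.109 to 0.004 for Cyp26b1.

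Depth limited Rarb and Aldh1a1, which did not enter the main test, and Stra6, whose interval vs. SD spanned more than 1 on the log2 scale.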
